A study of Homo sapiens with 20 samples.

Results

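The 9 genes EOMES, TBR1, FEZF2, BCL11A, BCL11B, CUX1, CUX2, SLC17A6 and SLC17A7 mark neurons of the cerebral cortex that project over distance and release glutamate. They were matched by symbol among the 20237 coding records of 38369 gene records, and each had 1 coding record that carried no other gene name. All samples came from 1 established human embryonic stem cell line, H1, which had been turned into neural progenitors. Differentiation was started by withdrawing FGF, a mitogen of progenitors, and supplying the neurotrophin BDNF. Polyadenylated RNA was sequenced as paired-end libraries in the progenitor state (day 0), at days 1, 2, 4 and 5, and late in the course at days 11 and 18. There were 3 cultures a day, except at day 5, where 2 were left after the submitters removed 1 as an outlier. Cells grew on Matrigel up to day 4 and were then replated on Poly-D-lysine and laminin, so samples of days 4 and 5 differ in surface as well as in time. The values are FPKM, which divides fragments by transcript length and by the mapped total, and the authors deposited 1 pooled value per gene and day. No spread between cultures can therefore be given for any value, no difference between days was tested, and the sequencing depth behind the values is unknown. A gene was called higher or lower where log2(FPKM + 0.1) differed by at least 1, which is 2-fold. That scale understates the change of genes near 0.

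In the developing cortex, glutamatergic neurons arise from dorsal progenitors, pass through an intermediate progenitor state marked by EOMES (also called TBR2), and settle in layers that carry different transcription factors. TBR1 marks the deep layer that projects to the thalamus, FEZF2 and BCL11B (also called CTIP2) specify neurons that project to brainstem and spinal cord, and CUX1 and CUX2 mark the upper layers. SLC17A6 and SLC17A7 encode the vesicular glutamate transporters VGLUT2 and VGLUT1, which load glutamate into synaptic vesicles. VGLUT1 prevails in the adult cortex, VGLUT2 in thalamus, brainstem and sensory ganglia. None of the 9 genes is restricted to the cortex.

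Of the 4 pairs of related genes in the set, the transporters differed most in their change over time, and the 250 bases before their RefSeq start sites (build GRCh38.p14) are shown because their base composition also differed. They are written 5′ to 3′ on the gene's strand in lower case, with any CAGCTG, a form of the E-box bound by proneural transcription factors, in capitals. The SLC17A6 window is chr11:22338131-22338380 on the plus strand, and the SLC17A7 window is chr19:49441528-49441777 on the minus strand.
SLC17A6: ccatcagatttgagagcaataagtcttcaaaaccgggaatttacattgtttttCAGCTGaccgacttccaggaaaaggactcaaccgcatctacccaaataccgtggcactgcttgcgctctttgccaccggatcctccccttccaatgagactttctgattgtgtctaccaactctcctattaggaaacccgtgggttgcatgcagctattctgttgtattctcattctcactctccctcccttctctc
SLC17A7: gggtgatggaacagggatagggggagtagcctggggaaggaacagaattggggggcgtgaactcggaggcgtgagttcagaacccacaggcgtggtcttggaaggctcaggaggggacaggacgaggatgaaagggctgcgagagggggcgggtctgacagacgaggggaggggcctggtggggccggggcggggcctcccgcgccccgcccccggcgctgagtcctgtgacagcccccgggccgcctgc
GC content was 47.2% with 7 CpG dinucleotides in the SLC17A6 window and 70.0% with 17 CpG in the SLC17A7 window. The medians were 58.0% and 11 over 35116 windows of the same length. Such a difference was not particular to this pair. EOMES and TBR1 had 62% GC with 19 CpG and 42.8% with 4, and BCL11A and BCL11B had 53.2% with 5 and 54.8% with 17. CUX1 and CUX2 were alike at 80.4% with 36 and 81.2% with 39. Each gene had 1 window, which was not matched to the start of the measured record, and BCL11A for one has 8 transcripts. CAGCTG reads the same on both strands. It occurred in the window of 1 of the 8 genes with a RefSeq entry, SLC17A6, 197 bases before the start site, and in 14.0% of all windows. Such a match is a description of the letters only.

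Over the 18 days the set split into genes that were well expressed and genes that stayed near 0. CUX1 was the most abundant of the 9 on every day, and SLC17A6 changed most from day 0 to day 18. TBR1, FEZF2, BCL11B and SLC17A7 never reached 0.5 FPKM. From lowest to highest day, the FPKM ratio was larger for TBR1, near 0 on most days, than for SLC17A6 (27.9 and 19.2). A mean of at least 0.1 FPKM over the 7 days was reached by 6 genes, EOMES, BCL11A, CUX1, CUX2, SLC17A6 and SLC17A7, and missed by TBR1, BCL11B and FEZF2. Of the 6, BCL11A, CUX2 and SLC17A6 were higher at day 18 than at day 0 by at least 2-fold and 0 were lower. Over all 14107 coding records with a mean of at least 0.1 FPKM, 10.6% were higher by this rule and 28.2% were lower. In bulk samples, fewer cells of a type and less RNA per cell cannot be told apart.

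**Figure D1:**
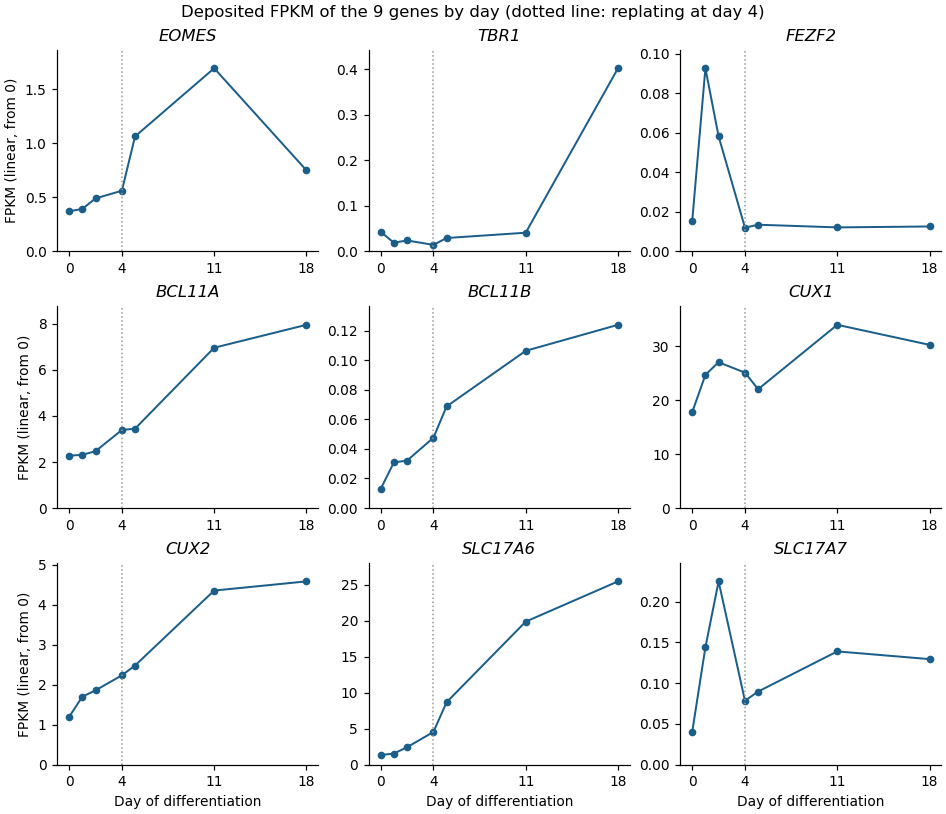
FPKM of each of the 9 genes (vertical axes, linear and starting at 0, with a scale of their own in each panel) against the day of differentiation. Each point is the deposited value of 1 day over its cultures, and the dotted line marks replating at day 4. SLC17A6 climbs from 1.32 to 25.4 FPKM, EOMES peaks at 1.69 FPKM at day 11, TBR1 stays under 0.05 FPKM until day 11, and FEZF2 never exceeds 0.0926 FPKM.

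The deposited values also drifted as a whole. The median coding record with a mean of at least 1 FPKM (11793 records) was lower at day 18 than at day 0 by 0.60 on the log2 scale, and the summed FPKM of all records went from 413978 to 251156. Relative to that median, all 6 genes above the abundance limit were at least 2-fold higher at day 18, where 19.3% of coding records were higher and 12.1% lower by that measure. The median change of the 6 was 1.31 on the deposited scale and 1.91 against the median record, beside -0.52 and 0.08 for all coding records above the limit. The changes of the 9 genes from day 0 to day 18 are given on both scales.

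**Figure D2:**
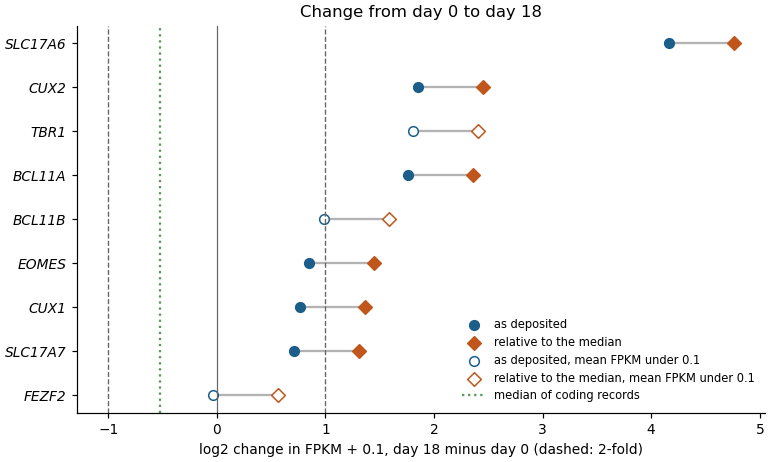
Change in log2(FPKM + 0.1) from day 0 to day 18 for each gene, as deposited (circles) and relative to the median of coding records with a mean of at least 1 FPKM (diamonds). Open symbols are the 3 genes with a mean under 0.1 FPKM, dashed lines mark 2-fold, and the dotted line is the median of coding records with a mean of at least 0.1 FPKM. SLC17A6 lies farthest to the right at 4.16, and FEZF2 lies at -0.04.

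Of the transporters that define a glutamatergic neuron, SLC17A6 held nearly all the signal from day 4 on. SLC17A6 (chr11:22359667-22401044 in hg19, plus strand, 1 transcript of 3920 exonic bases) was at 1.32, 1.54, 2.41, 4.54, 8.66, 19.9 and 25.4 FPKM from day 0 to day 18, in the order of the sampled days. It was higher at each day than at the day before, and among coding records it moved from percentile 44.9 to percentile 91.5. The day 18 value was 19.2 times that of day 0, a log2 change of 4.16 on the deposited scale and 4.76 against the median record. The gain was spread over the course, with log2 steps of 0.20, 0.61, 0.88, 0.92, 1.19 and 0.36 from one day to the next. The step from day 5 to day 11 was the only one past 2-fold, and SLC17A6 was the only one of the 9 genes past 2-fold there, where 2.56% of coding records were higher. Against the median record its step was 1.35, and BCL11A was then also past 2-fold there, at 1.16. That step covers 6 days, the step from day 4 to day 5 covers 1.

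SLC17A7 (chr19:49932656-49944808 in hg19, minus strand, 3 transcripts) was at 0.0402, 0.144, 0.225, 0.0783, 0.0897, 0.139 and 0.129 FPKM in the same order. Its highest value was at day 2 and its lowest at day 0, with no order in time. Its log2 change was 0.71 on the deposited scale, which is under 2-fold, and 1.31 against the median record. SLC17A6 was 32.9 times as high as SLC17A7 at day 0, 10.7 times at days 1 and 2, 143 times at day 11 and 197 times at day 18. The change of SLC17A6 exceeded that of SLC17A7 by 3.45 on the log2 scale. SLC17A8, which encodes the remaining transporter VGLUT3, was at 0.701 FPKM at day 0 and 1.07 at day 18. Of the summed FPKM of the 3 transporters, SLC17A6 held 64.1% at day 0, 93.5% at day 4 and 95.5% at day 18.

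**Figure D3:**
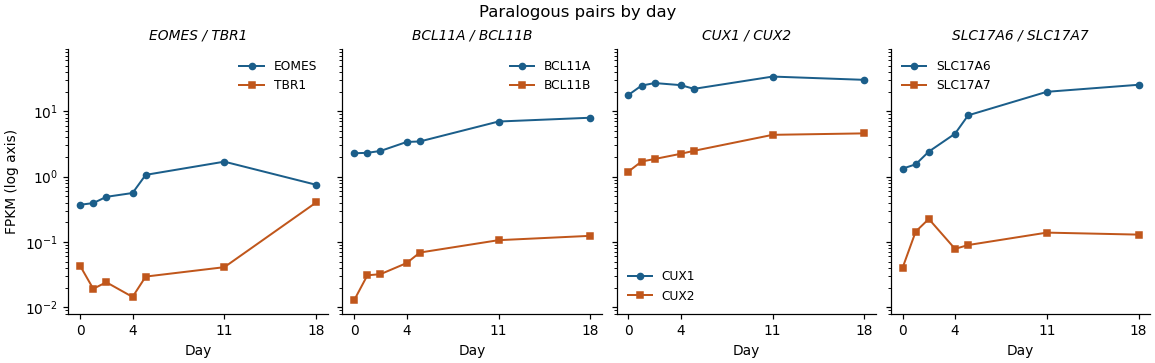
FPKM on a log axis, shared by the 4 panels, against day for the 4 pairs of related genes, the first gene of each pair as circles and the second as squares. The distance between the lines is the ratio of the pair, which widened for SLC17A6 over SLC17A7 from 32.9 to 197 and narrowed for CUX1 over CUX2 from 14.9 to 6.59.

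LincRNA records on the opposite strand of SLC17A6 rose as well. The lincRNA record linc-SLC17A6-AS (chr11:22355732-22360158 in hg19, minus strand), a long intergenic noncoding RNA across the start of the gene, was at 0.145, 0.254, 0.466, 0.785, 1.49, 3.61 and 4.53 FPKM, a log2 change of 4.24 (4.84 against the median record). Of its exonic bases, 37.3% overlap exons of SLC17A6. A longer record, linc-ANO5-AS (chr11:22281615-22360302, minus strand), reaches into the span of SLC17A6 but shares no exonic base with it, and it went from 0.548 to 7.09 FPKM, a log2 change of 3.47 (4.07). The study's methods describe default options, which do not use strand, so reads of SLC17A6 and of the overlapping part of linc-SLC17A6-AS cannot be told apart.

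Among the transcription factors of the early glutamatergic lineage, EOMES was detected at low levels with a maximum at day 11, and TBR1 appeared at the last day. EOMES (chr3:27757888-27764206 in hg19, minus strand, 4 transcripts) was at 0.371, 0.393, 0.490, 0.561, 1.06, 1.69 and 0.750 FPKM in the same order. It was higher at each step until day 11, where it stood at 4.57 times its day 0 value, and it then fell by 1.08 on the log2 scale to day 18, a step at which 3.54% of coding records were lower past 2-fold. Against the median record this last step was -0.80, under 2-fold. From day 0 to day 18 its change was 0.85 on the deposited scale, under 2-fold, and 1.45 against the median record. Among coding records it went from percentile 38.0 at day 0 to percentile 46.0 at day 11 and back to 41.2 at day 18.

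TBR1 (chr2:162272620-162281573 in hg19, plus strand, 2 transcripts), a T-box factor related to EOMES, was at 0.0431, 0.0192, 0.0241, 0.0144, 0.0295, 0.0411 and 0.402 FPKM. The value at day 18 stood apart from the 6 earlier days. From day 11 to day 18 TBR1 was the only one of the 9 genes higher past 2-fold, with a log2 change of 1.83 (2.11 against the median record), a step at which 1.66% of coding records above the abundance limit were. Its change from day 0 to day 18 was 1.81, and 2.41 against the median record. Its antisense lincRNA record linc-TBR1-AS (chr2:162278908-162282623, minus strand) was near 0 at day 0, at 0.0918 FPKM at day 11 and at 0.482 at day 18, and 53.0% of its exonic bases overlap exons of TBR1, so the same limit on strand holds for the value of TBR1 at day 18. EOMES was 8.59 times as high as TBR1 at day 0, 41.2 times at day 11 and 1.87 times at day 18.

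EOMES also marks mesendoderm, the precursor of mesoderm and endoderm, in differentiating embryonic stem cells. The 7 mesendoderm and endoderm markers T, MIXL1, GSC, SOX17, FOXA2, GATA6 and GATA4 summed to at most 0.145 FPKM on any day, and 6 of them stayed under 0.1 FPKM throughout. MIXL1, the exception, peaked at 0.136 FPKM at day 1 and was at 0.0423 FPKM at day 11, when EOMES was highest. The pluripotency genes POU5F1 and NANOG were at most at 0.108 and 0.0207 FPKM, and TDGF1 was listed at 0 on every day. The only one of 4 pluripotency markers above the abundance limit was DPPA4, which fell from 9.72 to 2.25 FPKM while EOMES was at 0.371 and 0.750.

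FEZF2 (chr3:62355347-62359190 in hg19, minus strand, 2 transcripts), which directs neurons to subcerebral targets, was at 0.0155, 0.0926, 0.0582, 0.0120, 0.0135, 0.0122 and 0.0126 FPKM. It was the only one of the 9 genes with a lower FPKM at day 18 than at day 0, with a log2 change of -0.04 that turned to 0.56 against the median record. BCL11B (chr14:99635627-99737822 in hg19, minus strand, 2 transcripts), a zinc finger factor that acts downstream of FEZF2 in these neurons, was at 0.0129, 0.0309, 0.0321, 0.0476, 0.0688, 0.106 and 0.124 FPKM. Its values were ordered in time at all 6 steps, yet its highest level was 0.124 FPKM, and its log2 change of 0.99 lay just under the 2-fold limit. Relative to the median record the change was 1.59. With the depth unknown, values this near 0 may rest on few fragments.

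BCL11A (chr2:60678303-60780633 in hg19, minus strand, 8 transcripts), the paralogue of BCL11B and a zinc finger repressor of cortical and sensory neurons, was at 2.28, 2.31, 2.47, 3.39, 3.45, 6.97 and 7.96 FPKM. It was higher at each of the 6 steps and rose by 1.76 on the log2 scale from day 0 to day 18, and by 2.36 against the median record. Most of the gain lay between day 5 and day 11, with a log2 step of 0.99. BCL11A was 176 times as high as BCL11B at day 0 and between 50.2 and 76.9 times on each later day. Which of the pair gained more depended on the pseudocount. BCL11A minus BCL11B was 1.3 with 1 added, past 2-fold. It was 0.77 with 0.1 added and -0.75 with 0.01 added, both under 2-fold. In FPKM alone, day 18 over day 0 was 3.50 for BCL11A and 9.60 for BCL11B.

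The upper-layer factors CUX1 and CUX2 are homeodomain proteins from sister genes. Their RefSeq transcripts share a run of at least 20 bases just after the start site, of which 20 are shown in capitals within 30 bases. The positions are chr7:101816027-101816056 for CUX1 and chr12:111034174-111034203 for CUX2 (build GRCh38.p14, plus strand). Only bases near the start sites were searched, and the run of CUX1 ends at the last base searched, so it may be longer. Whether it makes fragments hard to assign to 1 gene of the pair was not tested.
CUX1: caagatggcgGCCAATGTGGGATCGATGTT
CUX2: caagatggccGCCAATGTGGGATCGATGTT
CUX1 (chr7:101459292-101927249 in hg19, plus strand, 8 transcripts) was at 17.8, 24.7, 27.0, 25.1, 22.0, 34.0 and 30.3 FPKM. Its highest and lowest days were 1.91-fold apart, under the 2-fold limit, and it was higher than the day before at 3 of 6 steps. Its log2 change from day 0 to day 18 was 0.76 on the deposited scale and 1.36 against the median record. The gene is expressed in many cell types, and it was already at percentile 78.3 of coding records in the progenitors.

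CUX2 (chr12:111471829-111788356 in hg19, plus strand, 2 transcripts), the more neuron-restricted of the pair, was at 1.20, 1.70, 1.86, 2.24, 2.48, 4.36 and 4.59 FPKM. It was higher at each of the 6 steps and rose by 1.86 on the log2 scale in total, and by 2.45 against the median record. CUX1 was 14.9 times as high as CUX2 at day 0, 8.87 times at day 5 and 6.59 times at day 18. CUX2 gained 1.09 more than CUX1 on the log2 scale, which is just past 2-fold. That difference fell under 2-fold in 3 of the alternatives tried.

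Being higher than the day before at all 6 steps was rare. It held for 325 of the 14107 coding records (2.30%), among them BCL11A, CUX2 and SLC17A6. Over the 7 days, log2(FPKM + 0.1) of these 3 genes had Pearson correlations of 0.97 with each other, while CUX1 was correlated at 0.84 with CUX2 and 0.71 with SLC17A6. The 7 points share the same libraries and a common trend in time, and 264 of the 5188 coding records that changed at least 2-fold had a correlation over 0.95 with SLC17A6, so such values describe a widely shared time course.

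Within that limit, the genes most like each member were the following. For SLC17A6 they were ACTL6B, a subunit of the neuronal chromatin remodelling complex (0.999), and the stathmins STMN2 and STMN4, which regulate microtubules in growing neurites (0.998 and 0.997). For CUX2 they were RIMS1, a scaffold of the presynaptic active zone (0.998), ASTN1 (0.998) and SMPD3 (0.997). For BCL11A they were MASP1 (0.997), PKIA (0.995) and ATP9A (0.995). CUX1 had 2 genes over 0.95 among 5189 candidates, DHRS3, a retinal reductase (0.974), and PAX7 (0.954), and the next was LRRC49 (0.941).

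The other cortical projection neuron genes showed no common direction. Of 20 genes in that list, 17 were above the abundance limit, 5 of them were higher at day 18 past 2-fold and 1 was lower, with a median log2 change of 0.10 on the deposited scale and 0.70 against the median record. The most abundant were the POU factors POU3F2 (86.2 FPKM at day 0, 69.1 at day 18) and POU3F3 (39.6 and 39.3) and the corepressor TLE4 (33.0 and 23.0). BHLHE22, a factor of projection neurons that also acts in spinal cord and retina, rose from 0.110 to 3.82 FPKM. NEUROD6, a marker of cortical glutamatergic neurons, did not exceed 0.0200 FPKM.

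The label of the set was checked against genes that define the dorsal forebrain. EMX1 and EMX2, homeobox factors of the dorsal telencephalon, and OTX2, a factor of forebrain and midbrain, stayed under 0.1 FPKM on every day. Within the set, TBR1, FEZF2, BCL11B and SLC17A7 were likewise near 0. A cortical identity of the cells was not tested and cannot be taken from the label of the set. Of the 9 genes, those above 1 FPKM on at least 1 day were SLC17A6, CUX1, CUX2, BCL11A and EOMES. Of the 12 dorsal telencephalic progenitor genes, 8 were above the abundance limit, 7 of these were higher past 2-fold and 0 were lower, with a median change of 1.31 (1.91 against the median record). They include genes used in other regions of the neural tube. NEUROG2, a proneural factor upstream of EOMES in the cortex, rose from 0.693 FPKM at day 0 to 19.4 at day 11 and was at 9.93 at day 18, with its peak on the same day as EOMES. PAX6 was at 4.31 FPKM at day 0, 14.3 at day 11 and 10.4 at day 18, and GLI3 was at 26.6 FPKM at day 0 and 16.2 at day 18.

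Genes of neurons outside the cortex moved in both directions. Of 20 diencephalic, midbrain, hindbrain and sensory neuron genes, 15 were above the abundance limit, 7 were higher past 2-fold and 6 were lower, or 7 and 2 against the median record, with a median change of 0.14 (0.74). LMX1B, a LIM homeodomain factor of midbrain, hindbrain and dorsal spinal cord, went from 1.19 to 21.1 FPKM, and its correlation with SLC17A6 over the 7 days was 0.995. TLX3, a homeobox factor that selects glutamatergic over GABAergic fate in dorsal spinal cord, went from 1.11 to 15.9 FPKM (0.980), and POU4F1, a POU factor of sensory neurons, from 2.29 FPKM to 41.7 at day 11 and 24.4 at day 18 (0.955). EN1, a factor of the midbrain and hindbrain boundary, moved against SLC17A6 and fell from 2.49 to 0.140 FPKM. GBX2, a hindbrain factor, fell from 51.9 to 18.8 FPKM, and TCF7L2, an effector of Wnt signalling, fell from 27.1 to 9.06, but against the median record both were under 2-fold (-0.87 and -0.97). TLX3 and POU4F1 were picked out after their values were seen, except as far as POU4F1 is among the 3 most abundant of its list.

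**Figure D4:**
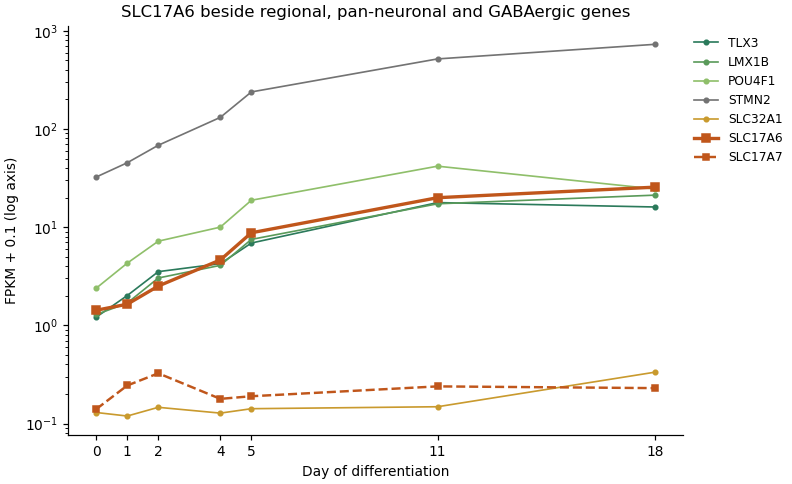
FPKM + 0.1 on a log axis against day for SLC17A6 and SLC17A7 (thick lines, squares) beside TLX3, LMX1B and POU4F1 (regional factors), STMN2 (pan-neuronal) and SLC32A1 (GABA transporter). SLC17A6 runs close to LMX1B and TLX3 from about 1 FPKM to more than 15 FPKM, while SLC17A7 and SLC32A1 remain below 0.25 FPKM on every day.

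All 11 genes of glutamate synthesis and transport beside the members were above the abundance limit, and 4 were higher past 2-fold and 0 lower (6 and 0 against the median record), with a median change of 0.55 (1.15). SLC1A2, a plasma membrane glutamate transporter best known from astrocytes, rose from 0.983 to 17.9 FPKM, and its correlation with SLC17A6 was 0.995. The list also holds SLC1A3, the other astrocytic transporter, which rose from 16.2 to 63.1 FPKM. The most abundant members of the list were GLUL, glutamine synthetase (91.3 FPKM at day 0 and 49.9 at day 18), and the glutamine carriers SLC38A1 (43.7 and 36.1) and SLC38A2 (53.4 and 29.5). Among 10 astrocyte and oligodendrocyte markers, 6 were above the limit, with 1 higher and 3 lower past 2-fold (1 and 0 against the median record), and their summed FPKM was 44.6 at day 0 and 38.5 at day 18. Of their defining genes, GFAP was at most at 0.186 FPKM and ALDH1L1 at most at 0.0364.

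GABAergic neuron genes were low beside SLC17A6. The 12 genes of that list summed to 0.714 FPKM at day 0 and 2.07 at day 18. Of these, 3 were above the abundance limit, with 2 higher past 2-fold, among them GAD1, which synthesises GABA (0.0692 FPKM at day 0 and 0.266 at day 18), and 0 lower. DLX1 was at 0.252 and 0.124 FPKM. SLC32A1, the vesicular GABA transporter, was between 0.0192 and 0.0483 FPKM up to day 11 and at 0.233 at day 18. SLC17A6 was 44.9 times as high as SLC32A1 at day 0, 411 times at day 11 and 109 times at day 18. TBR1, SLC32A1 and GAD2 were each higher at day 18 than on any other day, at 0.402, 0.233 and 0.220 FPKM, after 0.0411, 0.0483 and 0.0376 at day 11.

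**Figure D5:**
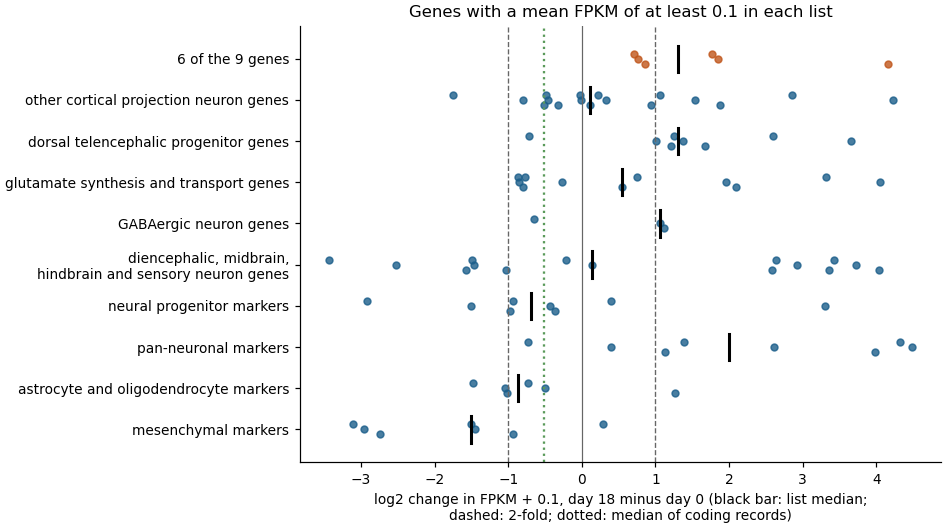
Change in log2(FPKM + 0.1) from day 0 to day 18 for every gene with a mean of at least 0.1 FPKM, 1 point per gene. Orange points are the set (6 of the 9 genes), and blue points are the compared lists that held more than 1 such gene. Black bars are list medians, dashed lines mark 2-fold, and the dotted line at -0.52 is the median of coding records with a mean of at least 0.1 FPKM. The set has a median of 1.31, the other cortical projection neuron genes 0.10 and the pan-neuronal markers 2.00.

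Markers of several cell types moved over the same days. Of the 8 pan-neuronal markers with a record, all were above the limit, 6 were higher past 2-fold and 0 were lower, with a median change of 2.00 (2.60 against the median record), and STMN2 went from 32.3 to 727 FPKM. TUBB3 (382 and 502 FPKM, a record that carries 3 gene names) and NEFM (179 and 108) were not past 2-fold, and MAP2 went from 93.5 to 205 FPKM. Of the 8 neural progenitor markers, 1 was higher, HES5, and 2 were lower, PROM1 and NES, with a median of -0.69. Against the median record 2 were higher and 1, PROM1, was lower, with a median of -0.09. Mesenchymal markers summed to 296 FPKM at day 0 and 39.9 at day 18. Of the 7 above the limit, 5 were lower (3 against the median record) and 0 higher. COL3A1 went from 238 to 30.5 FPKM and COL1A2 from 33.6 to 3.81. COL1A1 was listed at 0 on every day, and whether this is absence or a failed estimate cannot be told. Of 5 blood cell markers 1 was above the limit, and 0 changed past 2-fold on the deposited scale (1 higher against the median record). The part of these shifts in the changes of SLC17A6, CUX2 and BCL11A was not tested.

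LincRNA records named after one of the 9 genes, overlapping it or lying within 100 kb numbered 37, of which 20 had a mean of at least 0.1 FPKM, and 5 shared exonic bases with 5 of the genes. Beside those of SLC17A6 and TBR1 these were linc-BCL11A-AS (57.3% of its exonic bases overlapping), which was at 0.0946 FPKM at day 0 and 0.236 at day 18, linc-CUX1-AS (17.2%), at 4.69 and 4.43, and linc-SLC17A7-AS (82.1%), which did not exceed 0.0400 FPKM. Not all neighbours moved with their gene. Near BCL11A, linc-BCL11A-2 went from 9.04 to 3.59 FPKM, and 80331 bases from EOMES, linc-SLC4A7 went from 106 to 19.1 FPKM, a log2 change of -2.47 beside 0.85 for EOMES (-1.87 and 1.45 against the median record). Near FEZF2, linc-PTPRG-AS was at 4.36 FPKM at day 0 and 5.55 at day 18 while FEZF2 stayed under 0.1 FPKM.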

How the data were processed

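The labels give 20 samples in 7 groups by day. Per the submitters' processing notes and the study's methods, the authors aligned reads with TopHat2 to hg19, built transcripts with Cufflinks, joined these to catalogues of lincRNAs and coding genes, and estimated FPKM with Cuffdiff2 at default options (versions not given in the sources used here). The deposited FPKM values hold 1 estimate per record and day, pooled over cultures, and the number of columns of single samples was 0. The depth behind them is unknown, which leaves no interval or detection limit. The deposited comparison table also holds the authors' log2 fold changes, test scores, p-values and q-values between adjacent days, which were not used. The FPKM of 4 records differed between the deposited files, none of them among the 9 genes.

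Values were read with Python 3.11.15, pandas 2.3.3 and numpy 2.4.6 and drawn with matplotlib 3.10.9. Changes were taken on log2(FPKM + 0.1), with a limit of 2-fold and a minimum mean of 0.1 FPKM over the 7 days, and scripts were tested on simulated data. Where a symbol had several coding records, the one with the highest mean was used. All positions of the 9 genes lie on records matched to the same gene in GENCODE on hg19. Promoter sequences came from RefSeq on GRCh38.p14 for 8 of the 9 genes and were not mixed with hg19 positions. Named were the 9 genes, the 3 records most correlated with each member of mean FPKM at least 1, in each of 12 lists the 3 most abundant genes and those with the largest rise and fall, and lincRNAs at the members with a mean of at least 0.1 FPKM. Some list genes are counted but not reported here by name. Other named genes were picked after their values were seen. The members and lists were chosen with earlier results of these data known. Alternatives were pseudocounts of 1 and 0.01, a minimum mean of 1 FPKM, no minimum, recentring on the median record, a 1.5-fold limit, summed records and other days.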

Additional observations from a re-analysis of the deposited data

How the results depend on the processing

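The files hold 1 value per day, so leaving out single cultures could not be run. No paired analysis was possible because the files hold 1 value per day over the cultures. The count of genes higher at day 18 than at day 0 was 3 of 6, beside 10.6% of coding records. It was 6 after recentring on the median record, beside 19.3%, and 6 with a 1.5-fold limit. In the other alternatives it was 3 or 4, and 0 were lower in each. It was out of 4 genes with a minimum mean of 1 FPKM, 9 with no minimum and 6 otherwise. The share of all coding records was not taken for alternatives other than recentring, so those counts have no background beside them. The median change of 1.31 was 0.988 over all 9 genes with no minimum mean and between 1.04 and 1.91 otherwise. With day 11 in place of day 18, the change of TBR1 turned from 1.81 to -0.0205, and that of EOMES minus that of TBR1 from -0.958 to 1.95. The change of TBR1 was also under 2-fold with a pseudocount of 1 (0.426). CUX1 gained less than CUX2 by under 2-fold with a pseudocount of 1 (-0.613), with day 11 (-0.852) and with days 11 and 18 against days 0 and 1 (-0.971). Of 87 values of single genes and pairs under the alternatives, 62 kept direction and side of the fold limit of their setting. Another 16 passed that limit newly, 4 no longer passed it and 5 changed sign. The 1.5-fold limit left each value as it was, so those passing newly there, such as EOMES at 0.852, stayed under 2-fold. Summed records could only return the main values, because each gene had 1 coding record. Both settings enter the tally, which is therefore no measure of stability. Beside those above, the sign changed for BCL11A minus BCL11B with a pseudocount of 0.01 (0.774 to -0.746), for FEZF2 after recentring (-0.0359 to 0.563) and for EOMES minus TBR1 with days 11 and 18 against days 0 and 1 (0.33). Values under 0.1 FPKM are limited by an unknown depth.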
